A study of Mus musculus with 6 samples.

Results

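The fibrillar collagens are the rod-shaped proteins that assemble into the banded fibrils of connective tissue, and their genes were described here in the atrioventricular canal (AVC) region of the fetal mouse heart. The members were chosen by gene family and not by any measured value: Col1a1, Col1a2, Col2a1, Col3a1, Col5a1, Col5a2, Col5a3, Col11a1 and Col27a1. Of these 9 genes, 7 were among the 18810 genes measured, and Col2a1 and Col5a3 were not analysed here. AVC regions holding the mitral, tricuspid and aortic valves were dissected at embryonic day 15.5, by the methods of the study with as little myocardium as possible, and total RNA of each heart was sequenced as its own library. The mice were labelled C57BL/6, and 3 embryos were null for Scx (Scx-/-) while 3 were wild type littermates (Scx+/+). Scx encodes scleraxis, a basic helix-loop-helix transcription factor of tendons and heart valves, and the label gives a null genotype of the whole embryo rather than of valve cells alone. The question addressed was whether loss of Scx went with a different level of fibrillar collagen transcripts. The labels and methods gave no other treatment or allele.

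A fibrillar collagen chain carries a long run of Gly-X-Y triplets, and the chains wind around each other into a triple helix inside the cell before enzymes trim the ends and the helices pack side by side outside it. Type I collagen, made of the Col1a1 and Col1a2 chains, forms the bulk of most fibrils, type III collagen (Col3a1) is abundant in stretchable tissue, and types V and XI (Col5a1, Col5a2, Col11a1) sit inside the fibril and set its diameter. In heart valves these fibrils build the layer that bears load, and valve interstitial cells are their main source. Col2a1, not analysed here, is the main chain of cartilage fibrils.

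The stretch that defines the family is shown here for 4 members, because the composition of these codons differs between the genes and their genotype differences are read beside GC content below. Each line gives the last 90 nucleotides of the longest unbroken run of Gly-X-Y codons in the coding sequence, 5′ to 3′, with the third base of every codon in capitals. The sequences are from the annotated transcripts of the NCBIM37 (mm9) mouse genome, and each window spans more than 1 exon.
Col1a1: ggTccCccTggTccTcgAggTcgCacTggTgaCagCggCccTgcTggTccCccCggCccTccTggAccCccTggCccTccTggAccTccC
Col3a1: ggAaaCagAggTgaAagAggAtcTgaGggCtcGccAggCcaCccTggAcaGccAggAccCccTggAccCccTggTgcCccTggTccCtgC
Col5a2: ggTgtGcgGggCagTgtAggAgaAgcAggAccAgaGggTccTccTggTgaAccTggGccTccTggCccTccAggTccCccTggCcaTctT
Col27a1: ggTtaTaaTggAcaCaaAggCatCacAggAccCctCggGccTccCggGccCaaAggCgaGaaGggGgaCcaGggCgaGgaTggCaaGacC
Every triplet opens with gg, the start of a glycine codon, and the Col1a1 window holds many triplets with cc, the start of a proline codon. The Col1a1 window lies at chr11:94811474-94811649 on the plus strand, and that of Col27a1 at chr4:62975752-62978388 on the plus strand. The whole run held 338 triplets in Col1a1, 344 in Col3a1 and 339 in Col5a2, against 217 in Col27a1. G or C filled the third position in 31.6% of the helix codons of Col1a1, in 23.5% of those of Col3a1 and in 26.0% of those of Col5a2. The share was 28.4% in Col11a1, 43.6% in Col5a1 and 52.2% in Col27a1. Over all exons, Col1a1 (57.7%), Col5a1 (57.9%) and Col27a1 (57.3%) were richer in G and C than Col1a2 (44.8%), Col3a1 (45.4%), Col5a2 (44.6%) and Col11a1 (45.4%).

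Scleraxis belongs to a class of factors that bind E-boxes, the motif CANNTG, so the promoters of the members were read for these letters. RefSeq promoters of the GRCm38.p6 build, 250 bases before to 50 after the start of the gene, were matched for 6 of the 9 members, with none for Col1a1, Col2a1 and Col5a2. The promoters of Col3a1, the member with the most E-box letters, of Col1a2, the other chain of type I collagen, and of Col5a1 are shown with every CANNTG in capitals.
Col3a1, chr1:45311288-45311587, plus strand: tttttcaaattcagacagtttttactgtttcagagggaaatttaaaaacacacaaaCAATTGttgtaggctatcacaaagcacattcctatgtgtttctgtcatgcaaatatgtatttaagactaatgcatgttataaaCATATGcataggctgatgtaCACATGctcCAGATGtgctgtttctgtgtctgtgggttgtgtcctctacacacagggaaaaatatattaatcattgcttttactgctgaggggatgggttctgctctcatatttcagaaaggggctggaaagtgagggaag
Col1a2, chr6:4505368-4505667, plus strand: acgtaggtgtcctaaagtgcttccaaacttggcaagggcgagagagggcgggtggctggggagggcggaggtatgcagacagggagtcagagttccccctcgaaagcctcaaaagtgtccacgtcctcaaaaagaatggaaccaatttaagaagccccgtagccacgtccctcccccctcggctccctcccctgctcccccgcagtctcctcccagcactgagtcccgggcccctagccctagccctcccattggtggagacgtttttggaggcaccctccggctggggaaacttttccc
Col5a1, chr2:27886175-27886474, plus strand: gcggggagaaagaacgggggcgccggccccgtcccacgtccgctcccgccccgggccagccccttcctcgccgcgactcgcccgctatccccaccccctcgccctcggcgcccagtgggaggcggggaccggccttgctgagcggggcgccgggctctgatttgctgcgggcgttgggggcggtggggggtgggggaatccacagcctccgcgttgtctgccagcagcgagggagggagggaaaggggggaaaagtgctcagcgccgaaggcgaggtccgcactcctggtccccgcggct
Col3a1 held 4 such words and 1 TATAAA. Col1a2 held no CANNTG and 2 CCAAT, and Col5a1 held neither. Of the other matched members, Col27a1 held 1 CANNTG, Col5a3 held 1 and Col11a1 held 0. Searched on both strands, CANNTG stood in 72.3% of all 32851 promoters of this length, CCAAT in 37.4% and TATAAA in 13.6%. The words may overlap each other, and a match is only a match of letters.

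The values were RPKM, reads scaled by the exon length of the gene and the mapped reads of the library, and the depth recovered from them was 46429970 to 68571003 reads a library. Scx itself was at 33.6, 18.6 and 82.9 RPKM in the 3 libraries labelled Scx-/- and at 29.5, 58.3 and 26.0 RPKM in the 3 labelled Scx+/+. These values cover the whole gene, while the study checked the loss of exon 1, so they do not check the genotype and the libraries are named by their labels. Y-linked genes and Xist showed that replicates 1 and 3 of both genotypes were male and replicate 2 of both was female. The lone Scx+/+ female, replicate 2, had the lowest depth and the most genes at the fill-in value of the table, which stands for low values (2252, against 1088 to 1465 in the others). Its sex and its library cannot be told apart, and results that turn on it are given without it too. In RNA from a dissected region, fewer cells of a type and less RNA per cell cannot be told apart. Each library was a separate embryo, and p-values measure the spread between these embryos.

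Col3a1 was the most abundant fibrillar collagen in every library, and Col27a1 the least. Col3a1 (ENSMUSG00000026043), the single chain of type III collagen, lies on chromosome 1 from 45368383 to 45406551 in mm9. It reached 119, 153 and 100.4 RPKM in the Scx-/- libraries and 130.3, 117 and 128 RPKM in the Scx+/+ libraries. The null values spread around the wild type values on both sides. Its share of the summed RPKM of the 7 members was 61.5% to 66.5%. Col5a2 (ENSMUSG00000026042), a chain of type V collagen, lies beside Col3a1 at 45431166 to 45560127 on the minus strand. It was at 28.2, 38.8 and 23.8 RPKM in Scx-/- and at 32.8, 28.4 and 30.7 RPKM in Scx+/+. Again the highest and the lowest of the 6 values were both in null embryos, replicates 2 and 3.

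Type I collagen came next by RPKM. Col1a2 (ENSMUSG00000029661), on chromosome 6 from 4454814 to 4491543, was at 18.001, 22.6 and 17.2 RPKM in Scx-/- and at 21.4, 19.3 and 23.8 RPKM in Scx+/+. The groups overlapped. Col1a1 (ENSMUSG00000001506), on chromosome 11 from 94797538 to 94814356, was at 7.34, 8.09 and 7.70 RPKM in Scx-/- and at 9.91, 8.36 and 15.8 RPKM in Scx+/+. It was the only member in which every null library was below every wild type library, although null replicate 2 and wild type replicate 2 lay close together. Col5a1 (ENSMUSG00000026837), the chain found in nearly all forms of type V collagen, lies on chromosome 2 from 27741945 to 27895034. It was at 5.15, 5.41 and 4.69 RPKM in Scx-/- and at 6.72, 5.08 and 7.90 RPKM in Scx+/+. Here the wild type replicate 2 fell among the null values while replicates 1 and 3 were above all of them.

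The last members were low. Col11a1 (ENSMUSG00000027966), a type XI chain best known from cartilage, lies on chromosome 3 from 113733458 to 113923636. It was at 0.970, 1.84 and 1.66 RPKM in Scx-/- and at 1.56, 1.44 and 1.96 RPKM in Scx+/+. Col27a1 (ENSMUSG00000045672), a collagen with a shorter helix known from cartilage, lies on chromosome 4 from 62875038 to 62996025. It was at 0.200, 0.487 and 0.229 RPKM in Scx-/- and at 0.317, 0.154 and 0.382 RPKM in Scx+/+. These values stood for 93 to 425 reads, against 2520 to 7113 for Col1a1, and the groups overlapped for both low members. No member was at the fill-in value of 0.0949 RPKM in any library. Col24a1, a related fibrillar collagen that was not a member, was at 0.172 to 0.433 RPKM.

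**Figure D1:**
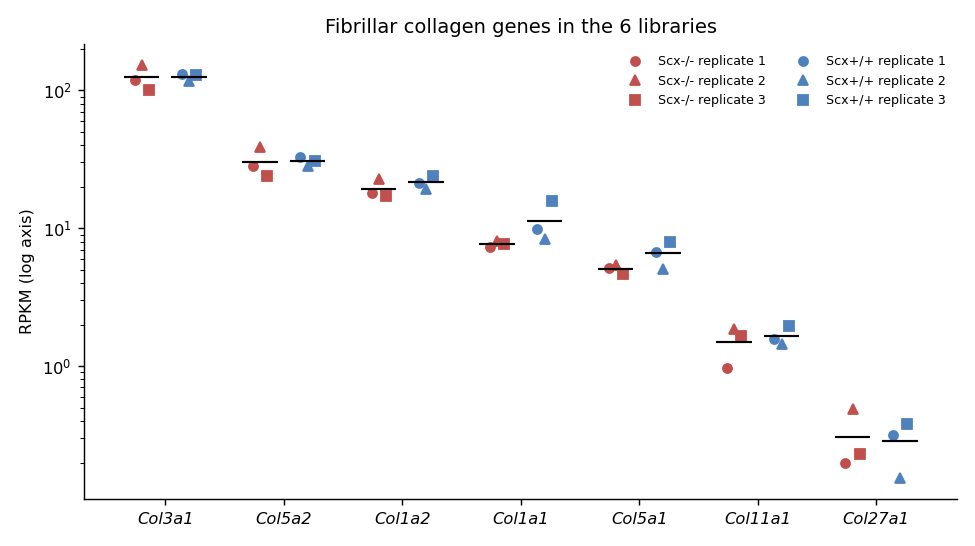
RPKM on a log axis of the 7 fibrillar collagen genes, ordered by mean level, in each of the 3 Scx-/- libraries (red) and 3 Scx+/+ libraries (blue), with the marker shape giving the replicate number and a black line the group mean. Col3a1 sits above 100 RPKM and Col27a1 below 0.5 RPKM in all 6 libraries, and only for Col1a1 do the red and blue points not overlap.

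Levels between genes were compared per kilobase of exon. The order Col3a1, Col5a2, Col1a2, Col1a1, Col5a1, Col11a1, Col27a1 held within each of the 6 libraries. The ranges over libraries overlapped for Col5a2 with Col1a2 and for Col1a1 with Col5a1. The order of Col5a2 and Col1a2 rested on the length used. The RPKM followed the union of all annotated exons, 12145 nucleotides for Col1a2, which is 2.27 times its longest coding transcript, and 9591 nucleotides for Col5a2, which is 1.45 times its own. The ratio of Col5a2 to Col1a2 was 1.29 to 1.71 per exon union and 0.822 to 1.09 per kilobase of the longest coding transcript. On that transcript scale Col1a2 averaged 43.8 in Scx-/- and 48.8 in Scx+/+, and Col5a2 43.8 and 44.3. Col3a1 remained the highest on both scales.

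The 7 members together took 0.139% to 0.206% of the mapped reads. Their summed RPKM was 178, 231 and 156 in the null libraries and 203, 179 and 209 in the wild type libraries. The sum thus followed Col3a1, and the null libraries spread on both sides of the wild type ones.

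With 3 embryos a genotype, 0 of the 7 members was called at an unadjusted p below 0.05 by limma on log2(RPKM + 0.1). Over all genes 731 of 18810 were called, which is 3.89%, with 2.82% higher and 1.06% lower in Scx-/-. At a Benjamini-Hochberg adjusted p below 0.05, limma called 0 genes, or 0% of those tested. The member median was -0.16 on the log2 scale, beside 0.10 for all genes, and 6 of the 7 members were below 0, as were 36.2% of all genes. The Scx-/- mean was lower than that of Scx+/+ for 6 members and higher for Col27a1. Groups without overlap, with Scx-/- below, were seen in 1 member and in 2.31% of all genes, while the reverse, seen in 7.19% of genes, was seen in no member.

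Col1a1 had the largest difference of the family. The null embryos averaged 7.71 ± 0.375 RPKM and the wild type embryos 11.4 ± 3.93 RPKM (SD, n = 3 each), so that the null level was 67.9% of the wild type level. The log2 fold change was -0.50, with a standard error (SE) of 0.25 and a 95% interval of -1.06 to 0.06, and limma gave an adjusted p of 0.967. An exact two-sided permutation test gave p = 0.1, the smallest that 3 against 3 libraries allow. The difference rests unevenly on the wild type libraries. Wild type replicate 3 was 0.78 above the mean of the gene on the log2 scale, and the 5 other libraries were between -0.32 and 0.11. Leaving out that library gave a log2 fold change of -0.24, and leaving out wild type replicate 2 gave -0.69, which then was called. Without wild type replicate 2, 1549 of 18810 genes were called, 468 of them lower. The main fit called 731, 200 of them lower.

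Col5a1 followed Col1a1 across libraries and was also lower on average in the null embryos, at 5.08 ± 0.365 RPKM against 6.57 ± 1.42 RPKM (SD, n = 3 each). Its log2 fold change was -0.34 (SE 0.22, 95% interval -0.85 to 0.17, adjusted p 0.967 by limma). Without wild type replicate 2 it was -0.51 and was called at an unadjusted p below 0.05. That setting called 1549 genes in all. Col1a2 averaged 19.3 ± 2.94 RPKM in Scx-/- and 21.5 ± 2.29 RPKM in Scx+/+ (SD, n = 3), with a log2 fold change of -0.16 (95% interval -0.57 to 0.25).

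The remaining members had means close together or wide errors. Col3a1 averaged 124 ± 26.9 RPKM in Scx-/- and 125 ± 7.46 RPKM in Scx+/+ (SD, n = 3), and its log2 fold change of -0.03 had a 95% interval of -0.47 to 0.41. Col5a2 had a log2 fold change of -0.05 with an interval of -0.51 to 0.42. In linear terms, the interval for Col3a1 ran from 0.720 to 1.33 times the wild type level and that for Col5a2 from 0.704 to 1.33 times. Col11a1 had a log2 fold change of -0.17 (interval -0.95 to 0.60). Col27a1 had 0.06 (interval -1.24 to 1.36), which in linear terms ran from 0.423 to 2.57 times the wild type level. Adjusted p-values of the 7 members by limma ran from 0.967 to 0.996.

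**Figure D2:**
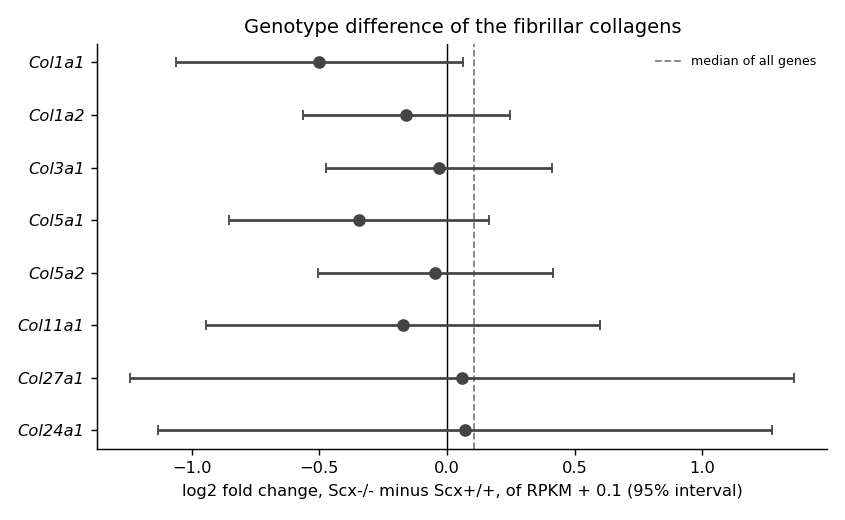
Log2 fold change of Scx-/- minus Scx+/+, on log2(RPKM + 0.1), for the 7 fibrillar collagen genes and the related Col24a1, with 95% intervals from limma, a solid line at 0 and a dashed line at the median of all genes. All 8 intervals cross 0, and that of Col1a1 reaches only to 0.06.

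Members fell into sets that varied together across the 6 libraries, which share their depth and RNA with every other gene measured in them. Col3a1 and Col5a2 had a Pearson correlation of 0.99 over the 6 libraries, and each was the gene most like the other among the genes of at least 1 RPKM. Their ratio stayed between 3.96 and 4.22 in all 6 libraries. The genes are neighbours, with 24614 nucleotides between their 3′ ends, which face each other. Col1a1 went with Col5a1 at a correlation of 0.93, and with Col3a1 at 0.24 only. Col1a2 stood between the sets, with 0.74 to Col1a1 and 0.82 to both Col3a1 and Col5a1. The genes most like Col1a1 over the 6 libraries, of 13826 compared, were the unnamed Gm16023 at 0.995, the ubiquitin protease Usp32 at 0.991 and the zinc finger factor Rreb1 at 0.981. All had their highest value in wild type replicate 3, as Col1a1 did. The correlations describe 6 libraries only.

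**Figure D3:**
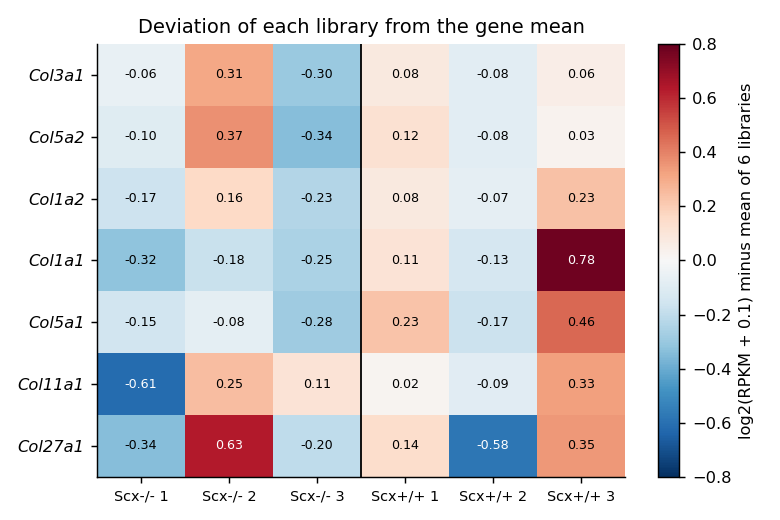
Difference on the log2 scale between each library and the mean of the 6 libraries, for the 7 fibrillar collagen genes in order of level, with null libraries to the left of the black line and wild type libraries to the right. The rows of Col3a1 and Col5a2 carry nearly the same values, with null replicate 2 high (0.31 and 0.37) and null replicate 3 low (-0.30 and -0.34), while Col1a1 is highest in wild type replicate 3 (0.78).

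Ratios between chains of a shared fibril or trimer were compared within each library, which cancels depth. It does not cancel effects of GC content, which differs between paired genes such as Col1a1 (57.7%) and Col1a2 (44.8%). The part of GC content in the ratios was not tested. The Col1a1 to Col1a2 ratio per exon length was 0.408, 0.357 and 0.448 in Scx-/- and 0.464, 0.434 and 0.663 in Scx+/+. Null and wild type values overlapped by 1 library, with null replicate 3 above wild type replicate 2. The means were 0.404 ± 0.0455 and 0.521 ± 0.125 (SD, n = 3), and the exact two-sided permutation test gave p = 0.2. Type I trimers hold more Col1a1 than Col1a2 chains, whereas per transcript length the wild type ratio of these RNAs averaged 0.254, so that Col1a2 RNA was the more abundant on both scales. Col3a1 to Col1a1 was 16.2, 19.0 and 13.0 in Scx-/- and 13.1, 14.0 and 8.13 in Scx+/+ (exact permutation p = 0.3). The lowest value of that ratio came from the wild type library with the most Col1a1. Col5a1 to Col1a1 was 0.609 to 0.701 in Scx-/- and 0.500 to 0.678 in Scx+/+ (exact permutation p = 0.4). Col5a2 to Col5a1 was 5.07 to 7.16 in Scx-/- and 3.88 to 5.58 in Scx+/+ (exact permutation p = 0.3). Adjusted over these 4 ratios, every exact permutation p was 0.4.

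**Figure D4:**
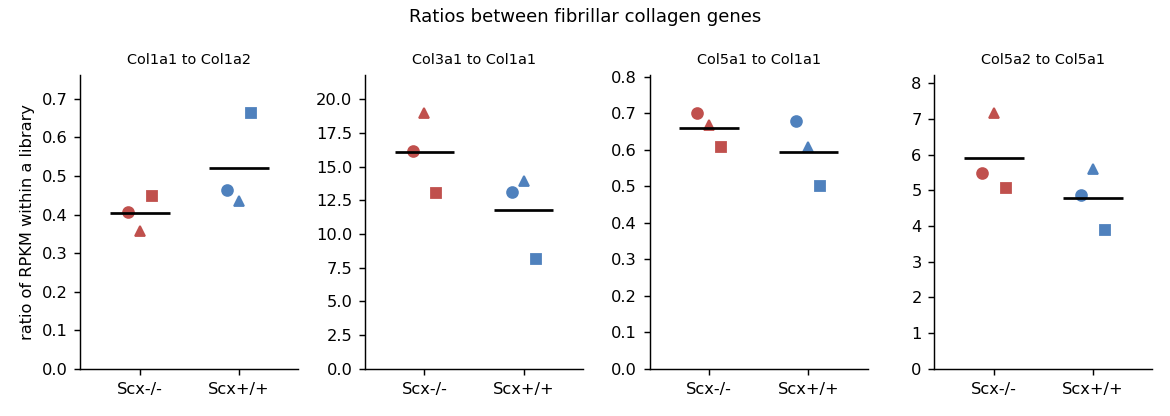
Ratio of RPKM between pairs of fibrillar collagen genes within a library, with 1 panel a pair starting at 0, points for the 3 Scx-/- (red) and 3 Scx+/+ (blue) libraries shaped by replicate number, and a line at each group mean. The groups overlap in all 4 panels, and the wild type mean is above the null mean only for Col1a1 to Col1a2.

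The members compared differently between genotypes in the males, 2 against 2, and in the females, where a single library stood for each genotype. In males, 2 against 2, the null libraries were lower for all 7 members on average. In 6 of them, all except Col11a1, both null males were below both wild type males, as in 14.9% of all genes. Between the 2 females the null library was higher for 6 of the 7, all except Col1a1, while 39.8% of all genes were below 0 in that comparison. For Col3a1 the male values were 119 and 100.4 RPKM in Scx-/- against 130.3 and 128 RPKM in Scx+/+, and the female values were 153 and 117 RPKM. For Col1a1 the same order gave 7.34 and 7.70 against 9.91 and 15.8 RPKM in males and 8.09 and 8.36 RPKM in females.

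In males alone limma called 2 members lower at an unadjusted p below 0.05, Col1a2 (log2 fold change -0.36, SE 0.12, adjusted p 0.532) and Col5a1 (log2 fold change -0.56, SE 0.18, adjusted p 0.532). That fit called 9.06% of all genes in either direction and 2.54% of all genes lower, and again 0% after adjustment. Col1a1 had the largest male difference of the members, at -0.73, and was not called.

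The difference between the sexes was itself tested as an interaction, on the log2 scale and with males minus females. This test was chosen after the values were seen, and with 1 female a genotype its spread comes from the 4 males alone, the females being assumed to vary like them. It was -0.74 for Col5a2 (95% interval -1.45 to -0.03) and -1.72 for Col27a1 (95% interval -3.13 to -0.32), the 2 members called at an unadjusted p below 0.05, with adjusted p-values of 0.320 and 0.298 by limma. Of all genes 15.3% were called in that interaction, and 0% after adjustment. For 5 members, Col1a2, Col3a1, Col5a1, Col5a2 and Col27a1, every null male was below every wild type male and the null female above the wild type female, a pattern that 10.6% of all genes had. The reverse pattern was seen in 15.8% of all genes. With 1 female a genotype, a sex difference and the particular pair of libraries cannot be told apart.

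**Figure D5:**
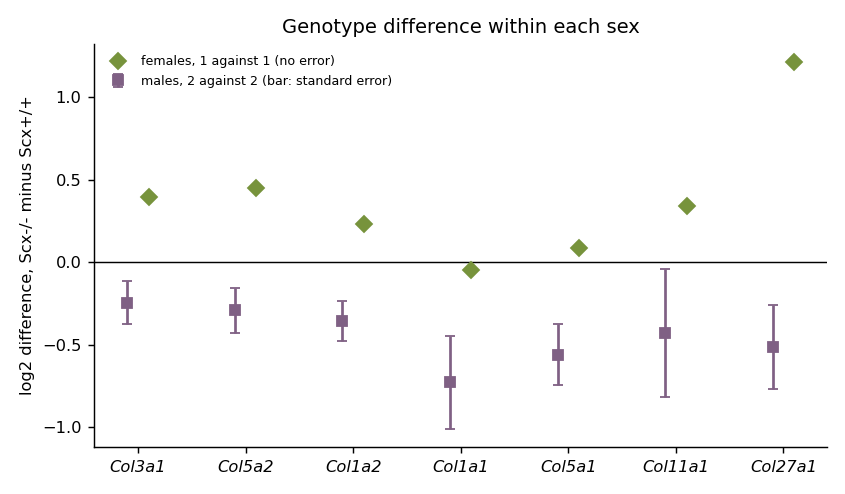
Log2 difference of Scx-/- minus Scx+/+ for each fibrillar collagen gene, shown for the males (2 against 2, squares, bars of 1 standard error) and for the females (1 against 1, no error). The male values are all below 0, from -0.24 for Col3a1 to -0.73 for Col1a1, and the female values are above 0 for every gene except Col1a1 (-0.05), reaching 1.21 for Col27a1.

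The members with the largest differences, Col1a1 and Col5a1, were rich in G and C, as was Col27a1. Among all genes of at least 5000 exon nucleotides, the median log2 fold change was -0.12 over the 267 with a GC content of at least 55% and 0.07 over the 2353 below 50%. Of the GC-rich members, Col1a1 had -0.50, Col5a1 -0.34 and Col27a1 0.06, and the 4 members below 50% had -0.17 to -0.03. After a fitted trend for length and GC was taken out of each library, Col1a1 had -0.44, Col5a1 -0.24 and Col27a1 0.24. The part of GC content in their values was not tested further. When the median log2 ratio of each library was set to 0, Col1a1 had -0.61, Col5a1 -0.45 and Col27a1 -0.05. Taking out the fitted trend also centred each library, so its values stand beside these rather than beside those of the main fit.

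Genes on the opposite strand shared exon sequence with 2 members, and the counting was not stated to use strand, so reads of the pairs cannot be told apart where they overlap. Gm17329 (ENSMUSG00000091342), on the minus strand of chromosome 11 from 94810494 to 94811645, has 141 exon nucleotides, 109 of which lie in exons of Col1a1. It was at 1.36, 1.80 and 2.14 RPKM in Scx-/- and at 14.1, 4.12 and 12.6 RPKM in Scx+/+, or 10, 17 and 18 reads against 119, 27 and 122. Every null library was below every wild type library. By limma Gm17329 fell by 2.31 on the log2 scale (SE 0.44, adjusted p 0.799) and was called at an unadjusted p below 0.05. Gm13372, with 113 of its 688 nucleotides in exons of Col5a1, was at 2.86, 2.89 and 0.706 RPKM in Scx-/- and at 4.26, 4.35 and 3.69 RPKM in Scx+/+. It was called too, at a log2 fold change of -1.12 (SE 0.48, adjusted p 0.967 by limma). The call of Gm13372 was lost with no intensity trend, and when any library other than null replicate 1 was left out. Gm17329 had 10 to 122 reads a library, against 2520 to 7113 for Col1a1.

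The genes that make, export, trim, link and anchor these collagens were counted by role. Of 91 genes on the lists 76 were measured, 1 of them was called higher and 0 lower, and their median log2 fold change was 0.04, beside 3.89% of all genes called, 2.82% of all genes higher, and a median of 0.10 over all genes. Of the prolyl and lysyl hydroxylases and glycosyltransferases, which modify the chains in the endoplasmic reticulum, 13 of 13 were measured and 0 called, with a median of 0.00, and P4hb, the shared subunit of prolyl hydroxylase, was the highest at 164 RPKM in Scx-/- and 137 RPKM in Scx+/+. Of the chaperones and export genes 7 of 8 were measured and 0 called, with a median of 0.16, and Ppib, a proline isomerase that helps collagen fold, averaged 388 and 322 RPKM. Of the procollagen proteinases and their enhancers, which cut the ends off the chains, 5 of 8 were measured and 0 called, with a median of -0.08, and Pcolce, an enhancer of that cut, averaged 5.89 and 6.33 RPKM. Of the lysyl oxidases, which crosslink fibrils, 4 of 5 were measured and 0 called, with a median of -0.17. The highest of them was Loxl2, at 26.7 RPKM in both genotypes. Loxl1, singled out after its values were seen, averaged 1.43 RPKM in Scx-/- and 1.91 RPKM in Scx+/+. Every null library was below every wild type library, as in 2.31% of all genes. Loxl1 was not called, although it was under 2 of 20 alternatives.

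The proteins on the fibril surface held the only call. Of 17 measured of 19, 1 was called, with a median of 0.19. Lum, which encodes lumican, a small leucine-rich proteoglycan that coats fibrils, was at 71.1, 122 and 83.8 RPKM in Scx-/- and at 53.4, 48.1 and 48.2 RPKM in Scx+/+. All null libraries were above all wild type libraries, and the log2 fold change was 0.85 (SE 0.21, adjusted p 0.967 by limma). The call was lost without replicate 3 of both genotypes. Fmod, which encodes the related proteoglycan fibromodulin and was singled out after its values were seen, was at 0.902, 0.632 and 0.486 RPKM in Scx-/- and at 1.23, 0.951 and 1.31 RPKM in Scx+/+. Its null libraries were all below the wild type ones, as in 2.31% of all genes. Its log2 fold change of -0.73 (SE 0.38) was not called, although it was under 7 of 19 alternatives. Dcn, also singled out after its values were seen, went the other way, averaging 164 RPKM in Scx-/- and 124 RPKM in Scx+/+. Every null library was above every wild type library, as in 7.19% of all genes. Its log2 fold change of 0.40 (SE 0.18) was not called, although it was under 5 of 20 alternatives. The highest gene of that list was Sparc, a collagen-binding matricellular protein, at 296 RPKM in Scx-/- and 279.9 RPKM in Scx+/+. Of the collagen receptors 6 of 9 were measured and 0 called, with a median of 0.07, led by the integrin subunit Itgb1 at 374 and 321 RPKM. Of the transcription factors known for these genes 15 of 17 were measured and 0 called, with a median of 0.03, and Scx was their highest. Of the collagenases and gelatinases, listed with their inhibitors, 8 of 10 were measured and 0 called, with a median of 0.14, and the inhibitor Timp3 was highest in the mean of the 6 libraries, at 21.7 RPKM in Scx-/- and 23.1 RPKM in Scx+/+. Of the other fibrillar collagens, Col24a1 was measured and not called, and Col11a2 was not analysed here.

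The tissue was checked against markers of the cells that it could hold, as summed RPKM. Valve mesenchyme genes (11 of 11 measured) summed to 316 to 457 RPKM in Scx-/- and 269 to 335 RPKM in Scx+/+. Postn, at 161 to 387 RPKM, was most of that sum. Twist1 and Sox9 were at 3.36 RPKM or less, and Msx2 and Prrx2 were at the fill-in value in some libraries. The sum therefore does not show how much valve tissue each library held. Cardiomyocyte genes (12 of 12) summed to 23519, 19596 and 28339 RPKM in Scx-/- and to 19936, 30752 and 17493 RPKM in Scx+/+. Myl2 was the highest, and the sums were far above the collagens, with heart muscle in every library. In this sum both null males were above both wild type males, and the null female was below the wild type female. That order, seen in 15.8% of all genes, is the reverse of that of 5 members. The cardiomyocyte genes did not all share it. Ttn was at 152 and 157 RPKM in null males against 193 and 200 RPKM in wild type males. Its female values were 175 RPKM in Scx-/- and 92.4 RPKM in Scx+/+. Of the 12 genes, 6 averaged lower in Scx-/-, and 1, Ryr2, was called lower, as were 1.06% of all genes. The sum therefore does not show how much muscle each library held. The part of muscle content in the values of the members was not tested. Endothelial genes (9 of 9) summed to 131 to 156 and 129 to 147 RPKM, smooth muscle genes (6 of 6) to 568 to 763 and 522 to 630 RPKM, and erythroid genes (8 of 8) to 7012 to 10338 and 5544 to 10212 RPKM. Cartilage genes, of which 7 of 13 were measured, summed to only 4.61 to 7.96 RPKM in Scx-/- and 4.95 to 5.43 RPKM in Scx+/+, with Hapln1 the highest. Of 7 bone genes only Spp1 was measured, at 1.01 RPKM or less. Epicardial and fibroblast genes (8 of 8) did not overlap in sum, at 110.3 to 137 RPKM in Scx-/- and 81.9 to 108 RPKM in Scx+/+. All 8 were higher in Scx-/- and 3 of them, Tcf21, Upk1b and Aldh1a2, were called higher, as were 2.82% of all genes. Over all genes 36.2% were lower in Scx-/-, and in 7.19% every null library was above every wild type library. Dpt, the highest of this list, also stood among the fibril surface genes. It was at 51.8, 68.4 and 91.4 RPKM in Scx-/- and at 41.1, 72.1 and 37.0 RPKM in Scx+/+, so that its groups overlapped, and it was not called. Fibroblasts make fibrillar collagens too, and the part of this difference in the values of the members was not tested.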

How the data were processed

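Total RNA of AVC regions from 3 Scx-/- and 3 Scx+/+ embryos was sequenced with 1 library an embryo. According to the methods of the study, reads were aligned to mm9 with TopHat 1.4.1 and counted over Ensembl exons with easyRNASeq. The authors deposited RPKM for 18810 genes, after a filter on genes with few reads and with low values replaced by a common value, found as 0.0949 RPKM in 8395 values. Every column was matched to a library by its label. Whether the counting used strand is not given in the sources used here.

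Exon lengths, GC content and transcripts came from the GENCODE annotation of NCBIM37, which held 18695 of the genes. Whole reads, within 0.1 read, were recovered from the RPKM for 98.45% to 98.57% of the values under 1000 reads, and for all 48 values of the members and Col24a1, when lengths were the union of all exons. This served to describe depth, and no count test was run, since the unit is RPKM.

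Genotypes were compared with limma 3.58.1 (R 4.3.3) after log2(RPKM + 0.1), with a trend of variance on intensity and without covariates, and p was adjusted by Benjamini-Hochberg over 18810 genes. Genes with an unadjusted p below 0.05 are termed called. Fold changes on this scale understate the change of low genes. Ratios within a library were tested with exact two-sided permutation tests, in Python 3.11.15 with scipy 1.17.1. Steps were tested on simulated data. Coding windows are printed for 4 members.

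The members were chosen by gene family and not by a measured value, but they and the lists were chosen with earlier results of these data known. Named were the members, Scx, the called genes or otherwise the highest gene of each list, the 3 genes most like Col1a1, and genes whose exons overlap a member. Fmod, Dcn and Loxl1 were named after their values were seen. Alternatives were pseudocounts of 0.01 and 1, a filter at a mean of 1 RPKM, limma without a trend, quantile normalization, ANOVA on RPKM and its log2, the median log2 ratio set to 0, removal of a length and GC trend, the replicate number as a block, leaving out each of the libraries, and sex as a covariate. Chosen after seeing the data were leaving out both libraries of a replicate number, the sex interaction, and transcript length for levels.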

Additional observations from a re-analysis of the deposited data

Results flagged for a closer look

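For 5 fibrillar collagens the genotype difference had opposite directions in the males and between the females, 1 against 1. Every null male was below every wild type male, and the null female was above the wild type female. The difference of the male and the female effect, as log2 fold changes in an interaction fitted with limma, was -0.59 for Col1a2 (adjusted p 0.336), -0.64 for Col3a1 (adjusted p 0.332), -0.65 for Col5a1 (adjusted p 0.410), -0.74 for Col5a2 (adjusted p 0.320) and -1.72 for Col27a1 (adjusted p 0.298). None passed after adjustment, and at an unadjusted p below 0.05 Col5a2 and Col27a1 did. Of all genes, 10.6% had the same pattern of males and females and 15.8% the reverse. The interaction called 15.3% of all genes at an unadjusted p below 0.05. The interaction was chosen after the values were seen and takes its spread from the males alone. With 2 males and 1 female a genotype, sex and the libraries of replicate 2 cannot be told apart.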

How the results depend on the processing

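Col1a1, Col1a2 and Col5a1 were lower in Scx-/- under all 20 alternatives. Of these, 17 were planned, and 3, both libraries of a replicate number left out, were chosen after seeing the data. The filter, limma without a trend, both ANOVA fits, the replicate block and sex as a covariate cannot change the fold change of a gene. Col1a1 stayed at -0.50 in all of these, so their direction was fixed in advance. Leaving out each library in turn gave log2 fold changes of -0.69 to -0.24 for Col1a1, -0.28 to -0.08 for Col1a2, -0.51 to -0.20 for Col5a1, -0.19 to 0.11 for Col3a1, -0.24 to 0.11 for Col5a2, -0.34 to 0.092 for Col11a1 and -0.24 to 0.25 for Col27a1, 539 to 1549 genes called, 0 to 2 members called and 1 to 6 pathway genes called. Col5a2 was at 0.0048 without Scx+/+ replicate 1. The 2 members called, and the 1549 genes and 6 pathway genes, came without Scx+/+ replicate 2, with Col1a1 at -0.69 and Col5a1 at -0.51. Without replicate 1 of both genotypes, Col3a1 was at 0.021, Col5a2 at 0.041 and Col11a1 at 0.059, and without replicate 3 of both, Col3a1 was at 0.13 and Col5a2 at 0.12. Without replicate 2 of both, which leaves males, Col1a2 (-0.36) and Col5a1 (-0.56) were called, Col27a1 was at -0.51, and 1704 genes, 2 members and 4 pathway genes were called. Col27a1 was at -0.063 with quantile normalization and at -0.049 with the median log2 ratio set to 0. Pathway genes called were 2 with no intensity trend, with quantile normalization, with the median set to 0 and with the length and GC trend removed, 4 with ANOVA on log2 RPKM and 3 with ANOVA on RPKM. Those ANOVA fits called 865 and 848 genes and 0 members. Lum and Gm17329 were not called by ANOVA on RPKM, and Gm13372 by neither ANOVA. Where 2 were called, the added gene was Fmod. The cause of these changes was not tested. Higher calls were 531 of 731, but 352 of 705 with quantile normalization, 281 of 646 with the median set to 0 and 299 of 661 with the trend removed. The replicate block called 573 genes, and by design its fold changes are those of the main fit. The correlations of same-numbered libraries, 0.09, -0.22 and -0.19, gave no sign of pairing by number, and that of null replicate 3 with wild type replicate 2 was 0.32. Values were centred within each group of 3, so these correlations depend on each other. The numbers need not follow litters, so pairing by litter cannot be decided from them. Col27a1 could not be tested under the filter at a mean of 1 RPKM, and the Col11a1 to Col2a1 and Col5a3 to Col5a1 ratios were not run. Depth limits Col27a1 most, at 93 to 425 reads.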
